A study of Mus musculus with 20 samples.

Results

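The cell cycle genes described here are 44 protein-coding genes, taken by gene name from a fixed list and found in both count tables, out of 54532 genes in each. They were sorted by function into 4 G1/S regulators (Ccnd1, Ccne1, Ccne2 and E2f1), 15 S phase genes and 25 mitosis genes. The S phase genes are the helicase subunits Mcm2, Mcm3, Mcm4, Mcm5, Mcm6 and Mcm7, the licensing and origin factors Cdt1, Cdc6, Cdc45 and Gmnn, the clamp Pcna, the enzymes of nucleotide supply Rrm1, Rrm2 and Tyms, and the checkpoint kinase Chek1. The mitosis genes are Cdk1 and its cyclins Ccna2, Ccnb1 and Ccnb2, the kinases Plk1, Aurka, Aurkb, Bub1 and Bub1b, the passenger proteins Birc5 and Cdca8, the centromere and kinetochore proteins Cenpa, Cenpe and Cenpf, the kinesins Kif11, Kif20a and Kif23, the spindle proteins Tpx2, Nusap1 and Prc1, the anaphase factors Cdc20 and Ube2c, and Top2a, Mki67 and Foxm1. The rule that picks them uses no measured value. The question followed was how the S phase genes stood against the mitosis genes as the share of tumor in liver tissue rose, and in macrophage-enriched cells taken from the metastases.

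RNA was sequenced from livers of wild-type C57BL/6 mice, without or with colorectal liver metastases (CRLM) made by injecting 1000000 cells of Mc38, a mouse colon adenocarcinoma line. The tissue groups were the control liver given normal saline at day 0 (con, 2 libraries), tumor-free tissue remote from the tumor at day 12 (L-con, 1 library), low-content tumor at day 9 (Lt, 2), medium-content tumor at day 9 (Mt3, 2) and at day 11 (Mt2, 2, and Mt1, 2), and high-content tumor at day 12 (Ht, 3). Each tissue group other than L-con came from separate livers, and each piece was a mix of tumor, liver and infiltrating cells. The sorted cells were F4/80+ (3 libraries) and CD11b+ (3) cells pulled with magnetic microbeads from metastases of the Mt2 kind at day 11. The Methods give female mice of 6 to 8 weeks and the labels of the tissue samples give male. Nothing in the labels says whether the sorted libraries came from separate mice, so their p-values measure the spread between those libraries, which may be technical. Ht_1 and Ht_3, described in the Methods as made identical, were summed to 1 sample (Ht_1+3), although their counts differed by more than sampling noise (chi-square per degree of freedom 27.6, against 26.7 for Ht_1 and Ht_2 and 12.1 for Ht_2 and Ht_3). Ht_2 and Ht_3 were thus the most alike, and a sum of these was not tried. The spread between the 2 Ht samples may therefore not be that between livers. Tumor content and day rose together from con through Lt and Mt to Ht and cannot be told apart along that order, except within a day (Lt and Mt3 at day 9, Mt2 and Mt1 at day 11). L-con and Ht were both of day 12.

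A cell that divides first passes from G1 into S phase. D and E cyclins with their kinases release E2F factors from the retinoblastoma protein, and E2F factors switch on the genes that license and copy DNA, among them the Mcm helicase subunits, Pcna and the enzymes of nucleotide supply. A later wave of genes, read by the DREAM and MuvB complexes with B-Myb and FoxM1, serves mitosis, and includes Cdk1 with its cyclins, the Aurora and Polo kinases, the spindle checkpoint and the kinesins. Hepatocytes of the adult liver are mostly quiescent, whereas tumor cells and some macrophages of inflamed tissue divide.

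The short sequences before the start sites carry the motifs by which these waves are usually told apart, so 7 promoters are shown. RefSeq promoters (GRCm38.p6) were matched by symbol for 35 of the 44 genes. The motifs searched, on both strands of the 250 bases before each start, were the E2F site, taken as TTT followed by CC, CG, GC or GG and then CGC, the cell cycle homology region (CHR), taken as TTTGAA or TTCGAA, and the CCAAT box. The 120 bases before the start are printed 5′ to 3′ on the strand of the gene, with the matched bases in capitals. Mcm6 and Mcm5 stand for the S phase genes, Cdk1, Cdc20 and Top2a for the mitosis genes, and the cyclin B genes Ccnb1 and Ccnb2 are shown because their levels went apart in the sorted cells. The windows lie at chr1:128359706-128359825 (minus strand, Mcm6), chr8:75109389-75109508 (plus, Mcm5), chr10:69352913-69353032 (minus, Cdk1), chr4:118437344-118437463 (minus, Cdc20), chr11:99024190-99024309 (minus, Top2a), chr13:100786487-100786606 (minus, Ccnb1) and chr9:70421555-70421674 (minus, Ccnb2).
Mcm6: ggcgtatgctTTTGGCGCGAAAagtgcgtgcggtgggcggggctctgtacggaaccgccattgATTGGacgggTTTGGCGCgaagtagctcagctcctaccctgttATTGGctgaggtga
Mcm5: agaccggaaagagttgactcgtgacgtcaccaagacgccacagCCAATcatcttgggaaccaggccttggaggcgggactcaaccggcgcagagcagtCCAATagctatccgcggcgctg
Cdk1: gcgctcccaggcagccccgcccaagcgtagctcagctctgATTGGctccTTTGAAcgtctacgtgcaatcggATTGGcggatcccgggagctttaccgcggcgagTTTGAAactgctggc
Cdc20: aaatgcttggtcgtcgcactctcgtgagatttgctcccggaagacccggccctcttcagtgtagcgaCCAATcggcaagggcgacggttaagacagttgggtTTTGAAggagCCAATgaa
Top2a: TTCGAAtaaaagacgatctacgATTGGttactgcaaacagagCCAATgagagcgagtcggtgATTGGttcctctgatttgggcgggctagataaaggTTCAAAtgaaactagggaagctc
Ccnb1: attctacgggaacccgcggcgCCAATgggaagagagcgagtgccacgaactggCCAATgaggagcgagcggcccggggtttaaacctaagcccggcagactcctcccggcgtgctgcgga
Ccnb2: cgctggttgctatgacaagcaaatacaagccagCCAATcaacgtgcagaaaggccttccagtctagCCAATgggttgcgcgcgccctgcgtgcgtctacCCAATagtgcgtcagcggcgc
An E2F match lay in 4 of 13 S phase promoters (30.8%) and in 1 of 20 mitosis promoters (5%, Cdk1), against 2.16% of 27025 genes in the table. The S phase genes with it were Cdc6, Mcm5, Mcm6 and Mcm7. The E2F matches of Mcm5 and Cdk1 and the CHR of Ccnb2 lay farther from the start than the printed bases, and the first run of capitals in Mcm6 holds E2F matches on both strands that overlap. A CHR match lay in 9 of 20 mitosis promoters (45%) and 3 of 13 S phase promoters (23.1%), against 19.6% of all genes. CCAAT was in 18 of 20 mitosis promoters (90%) and 9 of 13 S phase promoters (69.2%), against 37.5% of all genes. CHR and CCAAT stood together in the same 9 mitosis promoters (45%) and in 3 of 13 S phase promoters (23.1%), against 7.93% of all genes. Both matched G1/S promoters held none of the 3 motifs. These matches describe letters in a window, and no match says only that these letters are not in it.

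Depth was even, with 16032085 to 18246623 counts in the tissue libraries and 17785496 to 20548370 in the sorted libraries. At this depth 3 counts equal at most 0.187 CPM (counts per 1000000 counts) before scaling, and the CPM given for single genes are scaled by the trimmed mean of M-values (TMM). All 44 genes passed the filter on low counts in every fit. Summed hepatocyte markers (15 genes) fell from 229247 and 195795 CPM in con to 4239.5 and 6256 in Ht and were 87.6 to 395 in sorted cells. Stra6, Flnc, Grem1 and Lgals7, used as tumor markers because they had been picked on these same samples, had 0 counts in both con libraries and summed to 625 and 583 CPM in Ht. Summed macrophage markers (13 genes) were 709 to 2505 CPM in tissue and 12499 to 19327 in sorted cells. Xist was at most 0.210 CPM in tissue and 322 to 1035 in sorted cells, and Ddx3y was 14.9 to 129 CPM in tissue and 0 in sorted cells, so tissue and sorted libraries went apart in sex as well as in kind and in table. CD11b+ replicate 3 stood apart from the other sorted libraries, in that across 10073 genes its log2 ratio to both other CD11b+ libraries ran against gene length (Spearman rho -0.60), and its neutrophil markers (11 genes) summed to 5286 CPM against 1692 and 1035.

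The first comparison asked which genes differed between normal liver and tissue with a low tumor content. From con to Lt, 42 of the 44 genes rose and none fell, where 12.4% of all 17187 genes tested rose and 0.256% fell. Genes were called by the quasi-likelihood F test of edgeR, where the p adjusted over all genes after Benjamini and Hochberg did not exceed 0.05 and the log2 fold change reached 1 in either direction. All 25 mitosis genes rose, as did 14 of 15 S phase genes and 3 of 4 G1/S regulators. Without con replicate 2 the S phase genes called were 5, and without con replicate 1 or Lt replicate 2 they were 8, while 24 or 25 mitosis genes were called and 4.2%, 8.21% and 5.33% of all genes rose. The median log2 fold change was 4.33 over the mitosis genes, 1.80 over the S phase genes and 1.75 over the G1/S regulators, against 0.10 over all genes. In bulk tissue more cells of a dividing type and more RNA per cell cannot be told apart.

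Mki67, the chromosome-surface protein used as a mark of dividing cells, had 4.85 and 3.02 CPM in the con libraries, 70.1 and 116 in Lt and 296 and 276 in Ht. Its groups did not overlap, and it rose from con to Lt (log2 fold change 4.57 ± 0.46, adjusted p = 0.00132). Top2a, the topoisomerase that untangles replicated DNA, had 3.94 and 2.5 CPM in con, 65.6 and 139.6 in Lt and 313 and 334 in Ht (log2 fold change 5.0 ± 0.51, adjusted p = 0.00132 from con to Lt). In both genes the Lt libraries lay far above con and below Ht, and in Ht Ccnd1 alone of the 44 had a higher mean CPM than either. Cdk1, the kinase that drives entry into mitosis, had 1.65 and 2.42 CPM in con, 27.7 and 33.8 in Lt and 90.2 and 84.2 in Ht. Its partner Ccnb1 had 2.38 and 0.259 CPM in con, the lower of these from 3 counts, 26.9 and 53.8 in Lt and 136 and 126 in Ht. Ccnb1 rose from con to Lt (log2 fold change 4.95 ± 0.70, adjusted p = 0.00268), as did Cdk1 (log2 fold change 3.92 ± 0.40, adjusted p = 0.00132).

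The largest changes from con to Lt were those of Tpx2, a spindle assembly factor (log2 fold change 5.58 ± 0.50, adjusted p = 0.00123), Bub1, a kinase of the spindle checkpoint (5.55 ± 0.62), and Ube2c, the ubiquitin carrier of the anaphase-promoting complex (5.27 ± 0.51). Bub1 had 0.366 and 0.345 CPM in con, from 4 counts in each library, and 11.7 and 22 in Lt. Plk1, the Polo kinase, had 0.641 and 0.431 CPM in con and 14.6 and 24.0 in Lt (5.17 ± 0.43). Cdc20, an activator of the anaphase-promoting complex, had 1.74 and 1.47 CPM in con and 22.5 and 28.9 in Lt (4.0 ± 0.34). Foxm1, a transcription factor of the mitotic wave, had 1.56 and 0.949 CPM in con and 18.1 and 36.8 in Lt (4.46 ± 0.48). Each of these genes was higher in both Lt libraries than in both con libraries. The smallest changes among the mitosis genes were those of Cenpa, the centromeric histone (1.84 ± 0.33), and Aurka, the Aurora A kinase (1.90 ± 0.29), which had the highest levels of the class in con, at 7.87 and 7.94 and 5.40 and 4.23 CPM.

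Among the S phase genes, Mcm5, a subunit of the replicative helicase, had 5.95 and 3.54 CPM in con, 36.9 and 67.7 in Lt and 164 and 160.4 in Ht, and rose from con to Lt (log2 fold change 3.47 ± 0.44, adjusted p = 0.00196). Cdc6, which loads that helicase, had 0.733 and 0.259 CPM in con, from 8 and 3 counts, and 3.66 and 10.2 in Lt (3.81 ± 0.66). These were the only S phase genes whose log2 fold change passed 3. Pcna, the sliding clamp of DNA polymerase, was already at 43.4 and 45.5 CPM in con and reached 75.1 and 106 in Lt (log2 fold change 1.03 ± 0.25, adjusted p = 0.0257). Rrm2, the small subunit of ribonucleotide reductase, had 12.6 and 18 CPM in con and 30.0 and 57.5 in Lt (1.52 ± 0.40). Gmnn, the licensing inhibitor geminin, was the one S phase gene not called, with 10.2 and 10.8 CPM in con and 11.6 and 14.3 in Lt (log2 fold change 0.32 ± 0.22, adjusted p = 0.359). Among the G1/S regulators, Ccnd1 (cyclin D1) had 19.5 and 30.4 CPM in con and 77 and 126 in Lt (2.03 ± 0.31), and Ccne1 (cyclin E1) 2.01 and 1.90 in con and 4.85 and 7.88 in Lt (1.71 ± 0.33). E2f1 had 6.87 and 9.23 CPM in con and 13.8 and 18.3 in Lt, and at a log2 fold change of 0.999 it missed the fold threshold with an adjusted p of 0.0361.

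Both Lt libraries lay above both con libraries for all 44 genes, where this held for 37.2% of all genes tested. Lt replicate 2 was above replicate 1 for every one of the 44, with a median ratio of 1.74 over the mitosis genes and 1.63 over the S phase genes. It also held fewer hepatocyte transcripts (200545 and 113822 CPM for replicates 1 and 2) and more tumor marker transcripts (94.0 and 225 CPM). Other cell types moved with the comparison as well. Of 9 fibroblast markers 7 rose from con to Lt (median log2 fold change 2.78), and their sum was 297 to 413 CPM in con, 1668 to 3160 in Lt and 6467 to 7304 in Ht. Of 8 monocyte markers 6 rose (median 4.37), with sums of 1807 to 1832 CPM in con and 2001 to 2053 in Lt. From con to Ht 7 of them rose (median 5.01) while the sum was 1551 to 1623 CPM in Ht. The monocyte sum thus did not follow most of its markers. Of 13 macrophage markers 4 rose, with sums of 709 to 994 CPM in con and 1502 to 1855 in Lt. Of 11 neutrophil markers 4 rose, with sums of 3.19 to 4.30 CPM and 20.6 to 21.6 CPM. Of these markers 4 neutrophil markers were at 0 in both con libraries, 1 neutrophil marker was at 0 in both Lt libraries, and no fibroblast, monocyte or macrophage marker was at 0 in a whole group. The part of these differences in the result was not tested.

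**Figure D1:**
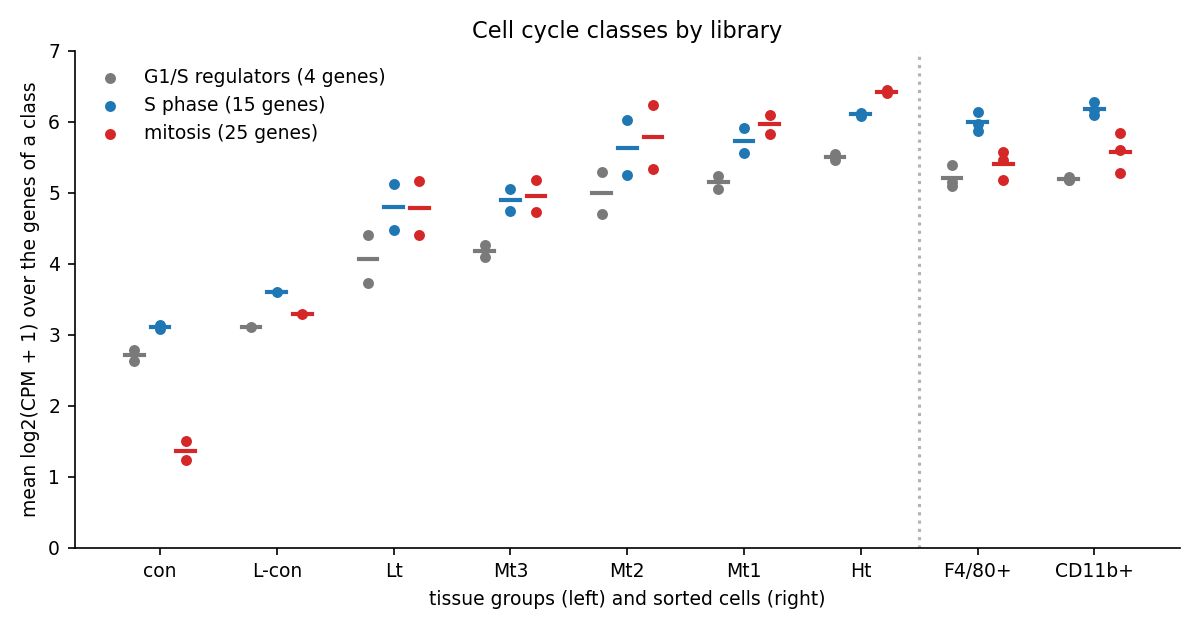
Mean log2(CPM + 1) over the genes of each class, 1 point a library and a bar at the group mean, for the 4 G1/S regulators, 15 S phase and 25 mitosis genes. In con the S phase points (3.09 and 3.14) lie above the mitosis points (1.24 and 1.51), in Ht the mitosis points (6.40 and 6.45) lie above the S phase points (6.08 and 6.13), and in every sorted library the S phase point lies above the mitosis point.

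From con to Ht all 44 genes rose, where 25.8% of all genes rose and 24.1% fell. The median log2 fold change was 6.04 over the mitosis genes, 3.06 over the S phase genes and 3.12 over the G1/S regulators, against 0.09 over all genes. Both Ht samples lay above both con libraries for each of the 44, where this held for 45.6% of all genes. Con to Lt and con to Ht share the con libraries, so the counts of the 2 comparisons are not independent. The largest changes were in Bub1 (log2 fold change 7.30 ± 0.62, adjusted p = 9.02e-05), Tpx2 (7.15 ± 0.52) and Plk1 (6.84 ± 0.43). The smallest were in Gmnn (log2 fold change 1.14 ± 0.21, adjusted p = 0.00143), Tyms, which makes thymidylate (2.00 ± 0.21), and Pcna (2.03 ± 0.26). Mki67 stood at 6.16 ± 0.49, Mcm5 at 5.08 ± 0.47 and Ccnd1 at 3.69 ± 0.33. The size of such values rests on scaling, since with total counts in place of TMM the median of all genes moved from 0.09 to 1.28 and 51.3% of all genes were called higher. The 44 genes were also all called higher with that scaling, with medians of 7.22 for mitosis and 4.25 for S phase.

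The step from low to high tumor content raised the genes of all 3 classes. From Lt to Ht 39 of 44 genes rose and none fell, where 11.7% of all genes rose and 20.2% fell. All 25 mitosis genes rose (median log2 fold change 1.61), with 10 of 15 S phase genes (1.41) and all 4 G1/S regulators (1.46), against a median of -0.01 over all genes. Foxm1 changed most, from 18.1 and 36.8 CPM in Lt to 111 and 112 in Ht (log2 fold change 1.99 ± 0.38, adjusted p = 0.00445). It was followed by Bub1b, the checkpoint kinase BubR1 (1.81 ± 0.36), and Bub1 (1.75 ± 0.41). The 5 genes not called were all of S phase. Of these, Tyms (0.78 ± 0.20), Gmnn (0.83 ± 0.21) and Pcna (1.00 ± 0.25) missed the fold threshold, while Cdc45, a part of the helicase (log2 fold change 1.07 ± 0.44, adjusted p = 0.0761), and Cdc6 (log2 fold change 1.19 ± 0.49, adjusted p = 0.0733) missed the adjusted p. In all 44 genes both Ht samples were above both Lt libraries, where this held for 40.3% of all genes. The count rested on Lt replicate 1, the library with the lower levels, since without it 8 genes were called (median log2 fold change 1.27 for mitosis and 1.08 for S phase), and the share of all genes called higher was also lower, at 3.57%.

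**Figure D2:**
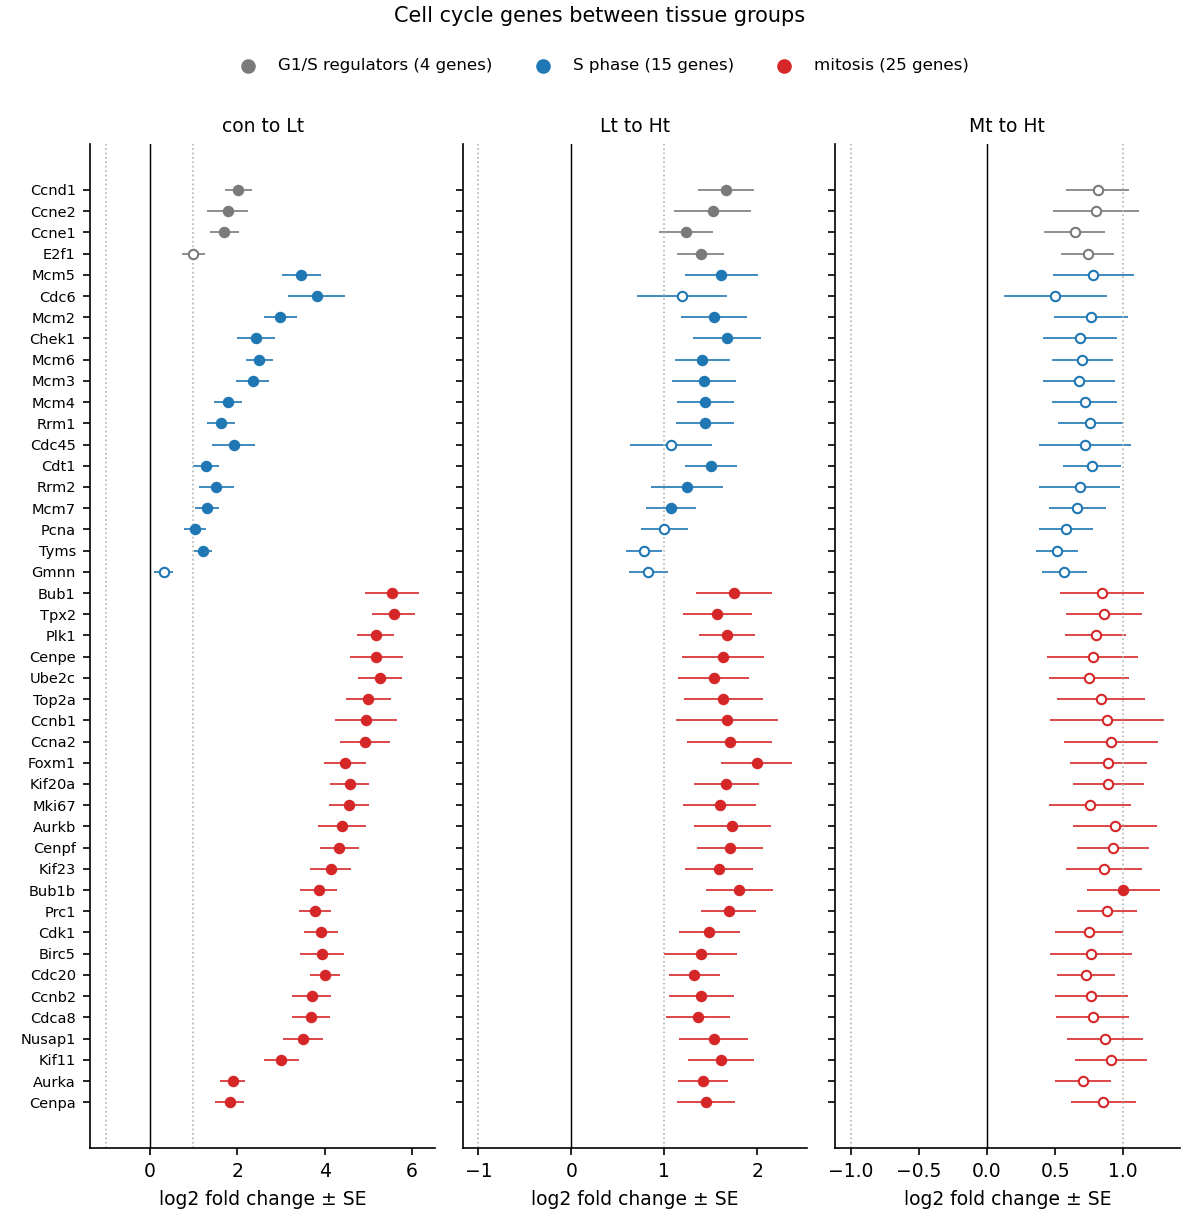
Log2 fold change ± SE of each of the 44 genes from con to Lt, Lt to Ht and Mt to Ht, in gray for G1/S regulators, blue for S phase and red for mitosis, with filled points for called genes and dotted lines at 1 and -1. The horizontal scales differ between panels. In the first panel the mitosis genes run from 1.84 to 5.58 and the S phase genes from 0.32 to 3.81, and in the second they run from 1.32 to 1.99 and from 0.78 to 1.67.

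Between the mean of the 3 medium-content groups and Ht, every one of the 44 genes had a higher level in Ht, but 1 gene passed both thresholds, where 1.5% of all genes were called higher and 13.4% lower. That gene was Bub1b (log2 fold change 1.00 ± 0.27, adjusted p = 0.0305), and it was followed by Aurkb, the Aurora B kinase (0.94 ± 0.31), and Cenpf, a kinetochore protein (0.92 ± 0.27). The medians were 0.85 for mitosis, 0.68 for S phase and 0.77 for the G1/S regulators, against 0.00 for all genes. The smallest values were those of Cdc6 (0.50 ± 0.37), Tyms (0.51 ± 0.15) and Gmnn (0.57 ± 0.16). Unadjusted p was under 0.05 for 41 of the 44, where it was for 40.6% of all genes, and both Ht samples lay above all 6 Mt libraries for 38 of the 44, where this held for 18.7% of all genes. With the Mt libraries as 1 group, unadjusted p was under 0.05 for 12 of the 44, and the share over all genes was not counted. The count of called genes moved with the scaling and with single libraries. It was 43 with total counts, where the median of all genes was 0.55 and 15.1% of them were called higher. It was 14 without Mt2 replicate 2, where 4.75% of all genes were called higher, 2 without Mt1 replicate 2 (2.37%), and 0 without Mt2 replicate 1 (0.885%), Mt1 replicate 1 (0.507%) or Mt3 replicate 1 (0.519%). Without either Ht sample no gene of the whole table was called, so that the members cannot be read there, and the mitosis medians were 0.83 and 0.88.

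Levels in the medium-content groups filled the gap between Lt and Ht. Mki67 stood at 88.9 and 129.6 CPM (Mt3), 135 and 266 (Mt2) and 186 and 251 (Mt1). Mcm5 stood at 54.6 and 63.9 CPM (Mt3), 79.9 and 158 (Mt2) and 101 and 138 (Mt1). Ccnd1 stood at 109.7 and 116 CPM (Mt3), 183 and 263 (Mt2), 259 and 249 (Mt1) and 309.6 and 343 (Ht). In all 3 genes Mt3 overlapped Lt, which was of the same day, and Mt2 replicate 1 was the lowest library of day 11. Pcna stood at 87.7 and 94.7 CPM (Mt3), 107 and 174 (Mt2), 133 and 157 (Mt1) and 182 and 186 (Ht). Rrm2 stood at 34.0 and 43.2 CPM (Mt3), 54.6 and 114 (Mt2), 77.2 and 96.5 (Mt1) and 103 and 108 (Ht). Cdc6 stood at 5.89 and 8.91 CPM (Mt3), 10.2 and 16.4 (Mt2), 11.8 and 18 (Mt1) and 16.1 and 16.2 (Ht). Mt2 replicate 2 exceeded both Ht samples for Rrm2 and Cdc6 but not for Pcna.

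Among the mitosis genes, Top2a stood at 101 and 130.4 CPM (Mt3), 146 and 283 (Mt2) and 199 and 278 (Mt1). Cdk1 stood at 26.2 and 41.3 CPM (Mt3), 39.3 and 76.9 (Mt2) and 64.8 and 76.8 (Mt1). Ccnb1 stood at 38.6 and 50.6 CPM (Mt3), 60.6 and 114 (Mt2) and 83.1 and 99.7 (Mt1). Each stayed below both of its Ht values in all 6 Mt libraries. Plk1 stood at 19.4 and 24.3 CPM (Mt3), 32.2 and 53.5 (Mt2), 44 and 54.8 (Mt1) and 62.3 and 62.8 (Ht). Cdc20 stood at 20.8 and 27.6 CPM (Mt3), 31.3 and 57.3 (Mt2), 57.3 and 56.3 (Mt1) and 68.6 and 61.9 (Ht). Foxm1 stood at 31.7 and 41.6 CPM (Mt3), 53.4 and 92.5 (Mt2) and 67.9 and 92.8 (Mt1). These 3 followed the same order, with the day 9 libraries lowest. Of the G1/S regulators, Ccne1 stood at 5.47 and 7.07 CPM (Mt3), 9.18 and 13.6 (Mt2), 11.6 and 14.1 (Mt1) and 14.9 and 15.6 (Ht). E2f1 stood at 13.5 and 20.0 CPM (Mt3), 26.2 and 35.0 (Mt2), 29.1 and 35.9 (Mt1) and 41.4 and 44.1 (Ht). Replicate 2 was above replicate 1 in all 15 S phase genes of Mt3 and Mt1 and in 25 and 22 of their 25 mitosis genes. In Mt2 it was above in all 44 genes, with a median ratio of 1.89 over the mitosis genes and 1.71 over the S phase genes, and its summed hepatocyte markers were 33451 CPM against 121995.

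Relative to the Ht mean, the mitosis genes stood at a median of 1.5% in con, 32.2% in Lt and 35.7% in Mt3, and then 66.8% (Mt2) and 72.2% (Mt1). The S phase genes stood at 11.8%, 37.1%, 40.5%, 73.7% and 77% from con to Mt1, and the summed tumor markers at 0, 26.4%, 29.8%, 63.4% and 65.9%. Both classes thus followed the order of the tumor markers, and the gap between the classes was widest in con. The markers had been picked on these same samples, so that order is not an independent measure of tumor content. Gmnn (44.7% in con), Tyms (24.8%) and Pcna (24.2%) kept the most of their Ht level in normal liver, and Bub1 (0.616%) and Tpx2 (0.697%) the least.

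**Figure D3:**
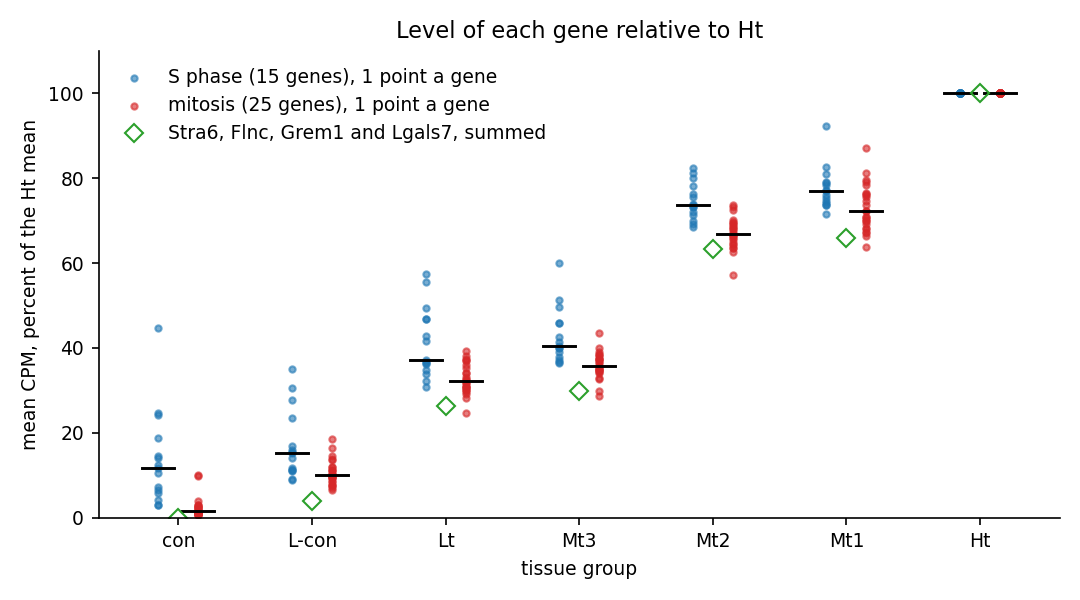
Mean CPM of each S phase (blue) and mitosis (red) gene in each tissue group as a percent of its Ht mean, with a black bar at the median of the class and a green diamond for the summed CPM of Stra6, Flnc, Grem1 and Lgals7, which had been picked on these samples. The medians rise from 11.8% and 1.5% in con to 37.1% and 32.2% in Lt and 77% and 72.2% in Mt1, and the diamonds rise from 0 to 26.4% and 65.9%.

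The level of the S phase genes minus that of the mitosis genes, as the difference of their means of log2(CPM + 1), was 1.64 and 1.85 in the con libraries and 0.07 and -0.04 in Lt. It was 0.01 and -0.12 in the Mt3, -0.09 and -0.21 in the Mt2 and -0.26 and -0.19 in the Mt1 libraries, and -0.36 and -0.27 in Ht. The group means went down in that order, from 1.74 ± 0.15 in con to 0.01 ± 0.07 in Lt and -0.32 ± 0.07 in Ht (SD, n = 2 each). Neighboring groups overlapped from Lt to Mt1, Ht lay just below Mt1, and con stood apart from all of them. This measure is a description over chosen genes and was not tested.

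The tumor-free tissue of a tumor-bearing liver, L-con, had 1 library and allowed no test. In it 41 of the 44 genes were above both con libraries, where this held for 35.9% of 14558 genes with at least 10 counts in con. All 25 mitosis genes, all 4 G1/S regulators and 12 of 15 S phase genes were above, and all 44 were below both Lt libraries, where this held for 38.3% of the same 14558 genes (43 of the 44 among them). The median ratio to the con mean was 6.55 over the mitosis genes and 1.24 over the S phase genes. Mki67 had 32.1 CPM in L-con, from 371 counts, against 53 and 35 counts in con. Top2a had 32.7 CPM, Cdk1 10.5 and Ccnb1 10.0, while Pcna had 51.1 and Mcm5 14.9. The ratios of the classes overlapped, from 1.36 (Cenpa) to 11.9 over the mitosis genes and from 0.784 (Gmnn) to 3.66 (Cdc6) over the S phase genes, of which Mcm2, Mcm3, Mcm5 and Mcm6 were also above 2. Rrm2 (17.9 CPM), Gmnn (8.21) and Cdc45 (2.68) were the S phase genes not above both con libraries. The largest ratios were those of Tpx2 (11.9), Bub1 (10.7) and Ube2c (10.7), with 4 to 14 counts in each con library. L-con stood at 10.1% of the Ht level over the mitosis genes and 15.4% over the S phase genes, and its tumor markers summed to 23.8 CPM (3.93% of Ht) against 0 in con. Its macrophage markers summed to 1660 CPM against 709 and 994 in con, its fibroblast markers to 714 against 297 and 413, and its monocyte markers to 2412 against 1807 and 1832. The monocyte sum did not follow most of its markers from con to Ht. The S phase minus mitosis level of L-con was 0.30. The part of tumor, macrophage, fibroblast or monocyte transcripts in these values was not tested.

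In the sorted cells the median S phase gene was near its level in high-content tumor and the median mitosis gene below it, with wide ranges. The S phase genes stood at a median of 104% of Ht in F4/80+ cells (47.7% to 176%) and 105% in CD11b+ cells (48.1% to 179.9%). The mitosis genes stood at 48.0% (24.1% to 105%) and 57.9% (22.1% to 144%), with Ccnb2 above its Ht level in both populations and Cdca8 and Birc5 in CD11b+ cells. The tumor markers stood at 9.19% and 5.02% of Ht in the same cells. Mki67 had 166, 144 and 167 CPM in F4/80+ cells and 191, 153 and 72.3 in CD11b+ cells. Mcm5 had 166, 158 and 182 CPM in F4/80+ cells and 166, 187 and 161 in CD11b+ cells. Pcna had 199, 191 and 221 CPM in F4/80+ cells and 221, 227 and 401 in CD11b+ cells. CD11b+ replicate 3 was the lowest of the 6 for Mki67 and the highest for Pcna. Among the mitosis genes, Top2a had 158, 142 and 165 CPM in F4/80+ and 198, 168 and 116 in CD11b+ cells. Plk1 had 47.2, 31.9 and 43.5 CPM in F4/80+ and 58.7, 50.7 and 35.8 in CD11b+ cells. Cdc20 had 43.5, 27.1 and 34.8 CPM in F4/80+ and 50.9, 46.1 and 39.5 in CD11b+ cells. In all 3 genes the 2 populations overlapped. Foxm1 had 62.9, 47.4 and 59.6 CPM in F4/80+ and 75.9, 62.8 and 25.8 in CD11b+ cells, the lowest again in CD11b+ replicate 3. Cdk1 had 55.1, 43.6 and 51.8 CPM in F4/80+ and 70.4, 62.8 and 70.2 in CD11b+ cells, so that here every CD11b+ library was above every F4/80+ library.

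Among the S phase genes, Rrm2 had 62.5, 45.3 and 62.3 CPM in F4/80+ and 72.9, 59.2 and 60.4 in CD11b+ cells. Cdc6 had 21.1, 16.9 and 24.2 CPM in F4/80+ and 21.6, 20.9 and 22 in CD11b+ cells. Of the G1/S regulators, Ccne1 had 14.1, 15.1 and 17.2 CPM in F4/80+ and 18.8, 17.8 and 19.9 in CD11b+ cells. Ccne1 was above both Mt2 libraries in all 6 sorted libraries, Cdc6 likewise, and Rrm2 lay between them in 5 of the 6. The S phase minus mitosis level was 0.39, 0.69 and 0.68 in F4/80+ and 0.25, 0.57 and 1.00 in CD11b+ cells, above every library from Lt to Ht, among them Mt2 (-0.09 and -0.21).

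Mt2 tissue was set against the sorted cells to ask how the genes differed between whole metastases and macrophage-enriched cells of metastases of the same kind. The levels of Xist and Ddx3y given above place the sorted cells and the Mt2 livers sequenced in different animals. From Mt2 to F4/80+ cells 2 S phase genes were higher and 4 mitosis genes lower, where 17.2% of 18407 genes were higher and 25.2% lower. These were smaller shares of the 44 than of all genes. The F4/80+ libraries lay above both Mt2 libraries for 10 of the 44 and below for 8, where this held for 33.5% and 38.1% of all genes. In the fold changes, 10 of 15 S phase genes had a positive log2 fold change (median 0.51) and 22 of 25 mitosis genes a negative one (median -0.37), against a median of -0.12 over all genes. Higher were Cdt1, which loads the Mcm helicase with Cdc6, from 26.2 and 40.0 CPM in Mt2 to 81.8, 78.1 and 94.1 in F4/80+ cells (log2 fold change 1.35 ± 0.23, adjusted p = 0.000191), and Mcm3 (log2 fold change 1.05 ± 0.28, adjusted p = 0.00548). E2f1 (0.99 ± 0.23) fell just short of the fold threshold. Lower were Cenpf, from 38.0 and 70.3 CPM in Mt2 to 21.0, 21.3 and 20.0 (log2 fold change -1.38 ± 0.33, adjusted p = 0.00244), Ccnb1 (-1.30 ± 0.42), the kinetochore motor Cenpe (-1.14 ± 0.39) and Bub1 (-1.04 ± 0.32). Against their class, none of them called, went the S phase genes Chek1, a checkpoint kinase (-0.77 ± 0.31), Rrm2 (-0.57 ± 0.30), Tyms (-0.11), Rrm1 (-0.09) and Cdc45 (-0.07), and the mitosis genes Ccnb2 (0.60 ± 0.31), Cdca8 (0.37) and Aurkb (0.18).

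From Mt2 to CD11b+ cells 5 genes were higher and 3 lower, where 17.6% of all genes were higher and 26.3% lower. The CD11b+ libraries lay above both Mt2 libraries for 13 of the 44 and below for 5, where this held for 29.4% and 35.6% of all genes. Higher were Mcm3, from 51.9 and 98.1 CPM in Mt2 to 157, 180.2 and 197 in CD11b+ cells (log2 fold change 1.25 ± 0.28, adjusted p = 0.00171), Cdt1 (1.22 ± 0.23), E2f1 (1.10 ± 0.23), Ccnb2 (1.06 ± 0.31) and Pcna (1.01 ± 0.28). E2f1 had 54.2, 66.2 and 76.0 CPM in CD11b+ cells and 58.5, 54.9 and 69.6 in F4/80+ cells, against 26.2 and 35.0 in Mt2. Lower were Cenpf (log2 fold change -1.5 ± 0.33, adjusted p = 0.00129), Cenpe (-1.35 ± 0.39) and Ccnb1 (-1.02 ± 0.42). The medians were 0.53 for S phase and -0.29 for mitosis, with 13 of 15 S phase genes above 0 and 15 of 25 mitosis genes below 0. Chek1 (-0.76 ± 0.31) and Rrm2 (-0.39 ± 0.31) were again the S phase genes below 0. Ccnb2 was the one mitosis gene called higher, and 9 more were above 0 without being called. These were Cdca8 (0.84 ± 0.29), Birc5 (0.52 ± 0.34) and Aurkb (0.46 ± 0.33), 3 subunits of the chromosomal passenger complex, and Cenpa (0.25), Cdk1 (0.22), Plk1 (0.17), Kif23 (0.09), Bub1b (0.06) and Cdc20 (0.04).

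Which genes were called depended on the Mt2 libraries. Without Mt2 replicate 2, 7 genes were higher and 0 lower in F4/80+ cells, and 12 higher and 0 lower in CD11b+ cells, where 16.7% and 17.6% of all genes were higher and 40.2% and 42.5% called in either direction. Without Mt2 replicate 1, 1 was higher and 12 lower in F4/80+ cells, and 0 higher and 8 lower in CD11b+ cells, where 14.5% and 14.9% of all genes were higher and 36.9% and 38.1% called. Without F4/80+ replicate 2, 3 were higher and 1 lower in F4/80+ cells (16.8% of all genes higher and 40.3% called). Without CD11b+ replicate 3, 3 were higher and 2 lower in CD11b+ cells, in place of 5 and 3 (17.2% higher and 42.4% called). The median of the mitosis genes turned above 0 without Mt2 replicate 2, to 0.13 in F4/80+ and 0.27 in CD11b+ cells, with S phase medians of 0.78 and 1.10. Without Mt2 replicate 1 the medians were -0.74 for mitosis and 0.10 for S phase in F4/80+ cells, and -0.64 and 0.12 in CD11b+ cells. The S phase median was above the mitosis median in each of these settings, while the direction of the mitosis genes against Mt2 tissue was not stable. The sorted and tissue libraries come from separate tables and went apart in sex-linked genes. Table, sex and kind of sample therefore cannot be told apart in these 2 comparisons. The same holds wherever sorted cells are set against tissue, as in the percent of Ht, the class levels, the cyclin B genes and the inhibitors.

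**Figure D4:**
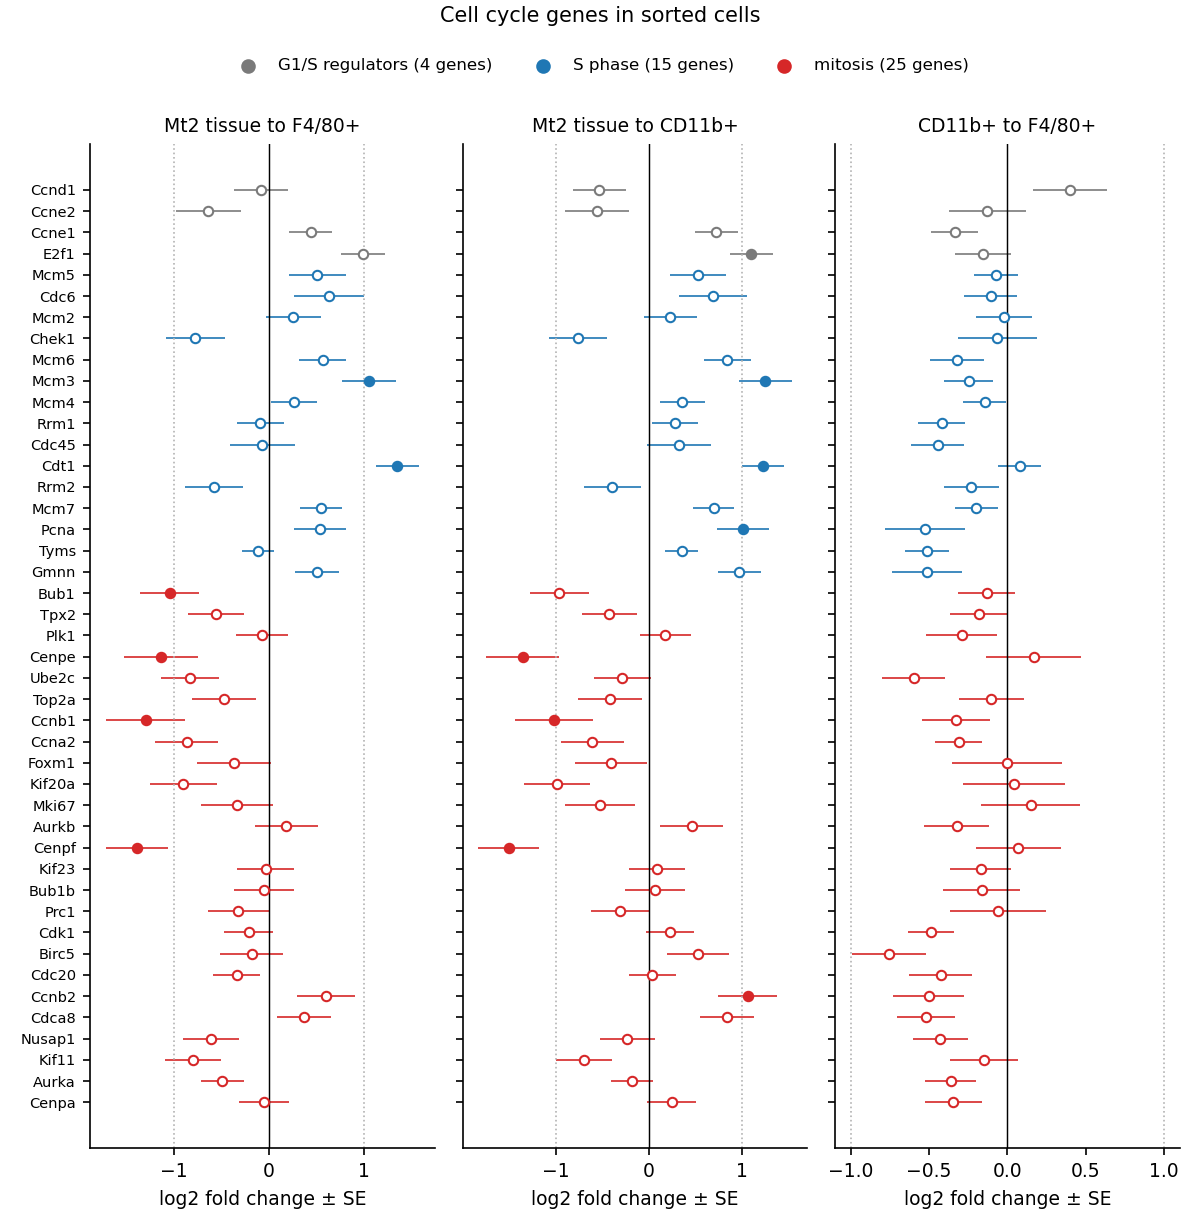
Log2 fold change ± SE of each of the 44 genes from Mt2 tissue to F4/80+ cells, from Mt2 tissue to CD11b+ cells and from CD11b+ to F4/80+ cells, colored by class as above, with filled points for called genes and dotted lines at 1 and -1. Cdt1 (1.35) and Mcm3 (1.05) lie past the right line and Cenpf (-1.38), Ccnb1, Cenpe and Bub1 past the left line in the first panel, and no point is filled in the last, whose horizontal scale is narrower.

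Between the sorted populations no gene of the 44 was called by edgeR, where 0.00701% of 14263 genes were called higher and 0.0701% lower. DESeq2 also called 0, and 8 of the 44 had an unadjusted p under 0.05 by edgeR, where 10.5% of all genes did, and 9 by DESeq2, which called 2.1% of all genes. That count of 8 was 18 without CD11b+ replicate 3 and 1 without F4/80+ replicate 2. The share over all genes was not counted in those 2 fits. The F4/80+ libraries all lay below the CD11b+ libraries for 10 of the 44, where this held for 8.73% of all genes, and above for none, against 15.1%. The median log2 fold change from CD11b+ to F4/80+ cells was -0.23 over the S phase genes and -0.29 over the mitosis genes, against 0.00 over all genes, with 38 of 44 genes below 0. Markers of other cell types lay further apart, with medians of -3.25 over 11 neutrophil markers (164 to 742 CPM in sum in F4/80+ and 1035 to 5286 in CD11b+ cells) and 1.01 over 10 endothelial markers (225 to 371 and 140.5 to 159.7 CPM), and the tumor markers summed to 44.9 to 64.5 and 21.4 to 39.8 CPM. Their part in the members' values was not tested. None of these neutrophil and endothelial markers was called either. The lack of calls among the 44 therefore does not show equal levels. The lowest values were those of Birc5, the survivin subunit of the passenger complex (log2 fold change -0.76 ± 0.24, adjusted p = 0.36), Ube2c (-0.60 ± 0.20) and Pcna (-0.53 ± 0.26). Above 0 stood Ccnd1 (0.40 ± 0.24), Cenpe (0.17 ± 0.30), Mki67 (0.15 ± 0.32), Cdt1 (0.08), Cenpf (0.07) and Kif20a (0.04). Ccnd1 had 205, 186 and 240.0 CPM in F4/80+ cells and 167, 192 and 104 in CD11b+ cells, and the lowest of these was CD11b+ replicate 3. That library was below both other CD11b+ libraries in 21 of the 44 genes and above both in 16. Its log2 ratio to them had a median of -0.40 over the 22 longer genes and 0.06 over the 22 shorter ones. Without it none of the 44 was called, where 0.927% of all genes were.

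The cyclin B genes, whose products both activate Cdk1, went apart between tumor tissue and sorted cells. On the scale of CPM per kilobase of gene, the ratio of Ccnb1 to Ccnb2 was 1.08 to 1.51 in the 10 samples from Lt to Ht and 0.256 to 0.411 in the 6 sorted libraries. It was also below 1 in L-con (0.766) and in con (0.944 and 0.0990, the last from 3 counts of Ccnb1). Ccnb1 had 60.6 and 114 CPM in Mt2, 40.1, 27.6 and 39.2 in F4/80+ cells and 52.9, 43.2 and 33.5 in CD11b+ cells. Ccnb2 had 15.3 and 29.7 CPM in Mt2, 43.7, 24.4 and 34.9 in F4/80+ cells and 52.7, 40.6 and 47.7 in CD11b+ cells. Ccnb1 was thus lower in every sorted library than in either Mt2 library, while Ccnb2 in F4/80+ cells overlapped Mt2 and in CD11b+ cells lay above both Mt2 libraries. Both have a listed pseudogene, with counts up to 7.78% of those of Ccnb1 and 18.5% of those of Ccnb2 from Lt to Ht and in sorted cells, and up to 33.3% and 120% in con and L-con, so reads shared between near-identical copies leave their levels uncertain.

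**Figure D5:**
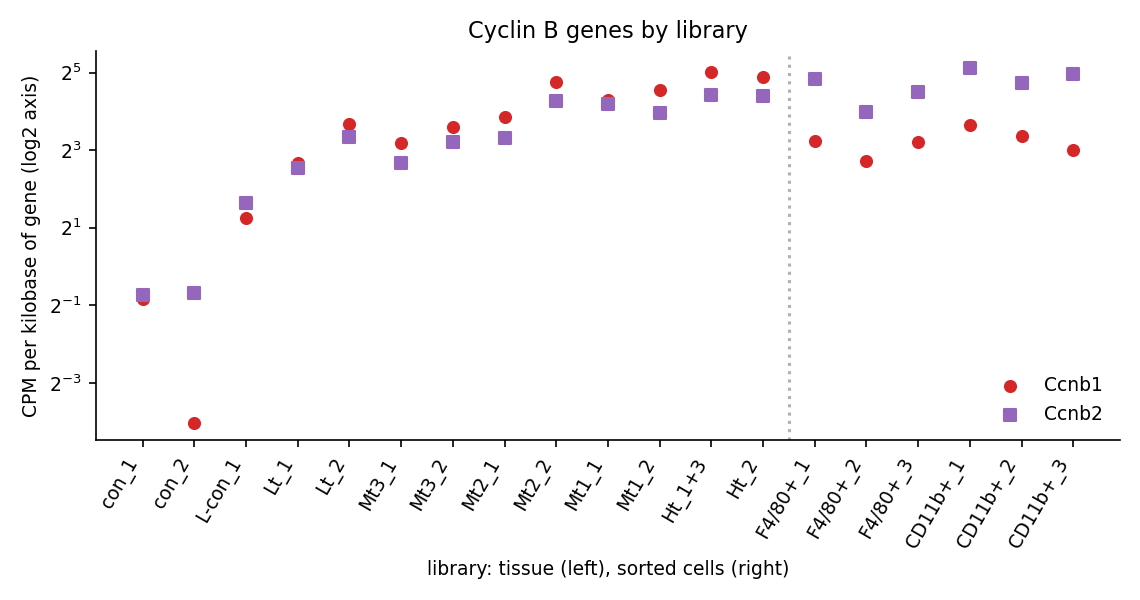
CPM per kilobase of gene (log2 axis) of Ccnb1 (circles) and Ccnb2 (squares) in each tissue library (left of the dotted line) and sorted library (right), Ht_1+3 being the sum of 2 libraries. Circles lie above squares in the 10 samples from Lt to Ht, with ratios of 1.08 to 1.51, and below squares in the 6 sorted libraries, with ratios of 0.256 to 0.411.

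Per kilobase of gene, Pcna was the most abundant of the 44 in every group named here, at a mean of 18.5 CPM per kilobase in con, 37.8 in Lt, 76.6 in Ht, 84.9 in F4/80+ and 118 in CD11b+ cells. In con the next were Gmnn (7.15), above Rrm2 (5.53) in both libraries, and then Ccnd1 (5.30) and Mcm7 (4.98), which overlapped Rrm2. The lowest was Bub1 (0.0817). In Ht, Ccnd1 (69.3) and Ube2c (43.0) followed Pcna. In F4/80+ cells Ccnd1 (44.7), Mcm5 (42.3) and Mcm3 (41.5) followed, and in CD11b+ cells Mcm3 (47.5), Mcm5 (42.9) and Mcm6 (38.5). In both populations the ranges of these following genes overlapped. Mcm5 (40.7) came directly after Ube2c in Ht, and by group means Ube2c stood at rank 15 in F4/80+ and rank 8 in CD11b+ cells.

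Other genes of the same processes, from lists set beside the 44, were counted in the same fits. Of 43 other replication genes 29 rose from con to Lt and 39 from con to Ht, where 12.4% and 25.8% of all genes did, with medians of 1.5 and 2.69. The largest changes were in Uhrf1, which keeps DNA methylation through replication (log2 fold change 7.04 ± 0.60, adjusted p = 9.02e-05 from con to Ht), Exo1 (6.56 ± 0.62) and Rad51ap1 (6.43 ± 0.67), both of DNA repair. Mcm10, a replication initiation factor, was the one to fall (log2 fold change -1.66 ± 0.51, adjusted p = 0.0172 from con to Ht), with 87.4 and 106 CPM in con and 29.9 and 32.2 in Ht, and it also fell from Lt to Ht (-1.96 ± 0.51). Its con level was above that of each of the 44 genes (Pcna, the highest, had 43.4 and 45.5 CPM). Whether it reports replication in liver was not tested. Of 55 other mitosis genes 51 rose from con to Lt and 52 from con to Ht (12.4% and 25.8% of all genes), with medians of 3.71 and 5.31. Ska1, of the kinetochore, had no count in either con library and a mean of 7.0 CPM in Lt, at least 25.5-fold higher than 3 counts in 1 con library. Cenpi had 0 and 0.0863 CPM in con and 7.76 and 12.1 in Lt, and Kif14, a kinesin, rose by a log2 fold change of 6.32 ± 0.75. From Lt to Ht 29 of the 43 replication genes rose, where 11.7% of all genes did, led by E2f7 (1.84 ± 0.43), Cdca7 (1.77 ± 0.41) and Uhrf1 (1.74 ± 0.44). In the same step, with that share, 47 of the 55 mitosis genes rose, led by Ska3 (2.12 ± 0.60), Sgo2a (2.05 ± 0.34) and Kif18a (1.85 ± 0.38). From Mt to Ht Melk, a mitotic kinase, was the one gene of both lists called (1.00 ± 0.30), where 1.5% of all genes were higher. From Mt2 to F4/80+ cells 13 of the 55 other mitosis genes were lower and none higher, led by Depdc1a (log2 fold change -1.80 ± 0.36, adjusted p = 0.000734), Kif18a (-1.68 ± 0.35) and Cenpk (-1.54 ± 0.33), where 25.2% of all genes were lower. Of the 43 replication genes Lig1, a DNA ligase, was higher (1.12 ± 0.24) and 3 were lower, among them Hells (-1.09) and Dut (-1.01). From Mt2 to CD11b+ cells 10 other mitosis genes were lower and none higher, led by Kif18a (-2.10 ± 0.35), where 26.3% of all genes were lower. Of the replication genes Lig1, Tk1 and Pold1 were higher and 3 were lower, among them Hells and Brca2. None of these counts in the sorted cells exceeded the share over all genes.

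Among 10 other G1 cyclins, kinases and their partners, 6 rose from con to Ht, where 25.8% of all genes did, led by Skp2, which marks Cdk inhibitors for degradation (log2 fold change 3.31 ± 0.36, adjusted p = 0.000143), Myc (2.89 ± 0.29) and E2f2 (2.59 ± 0.35). E2f2 was higher still in sorted cells, with 8.53 and 13.6 CPM in Mt2 and 39.7, 44.5 and 46.7 in F4/80+ cells (log2 fold change 1.97 ± 0.26, adjusted p = 1.54e-05), and so was Ccnd2, cyclin D2 (1.27 ± 0.28). From Lt to Ht 3 of the 10 rose, where 11.7% of all genes did, namely Skp2, Myc and Cdk4 (1.58, 1.48 and 1.23). Of 18 inhibitors of the cycle 3 rose from con to Lt, where 12.4% of all genes rose. From con to Ht 8 rose and 4 fell, where 25.8% and 24.1% of all genes did. Pkmyt1 (4.15 ± 0.45), Rbl1 (3.87 ± 0.40) and Cdkn2c (3.40 ± 0.36) rose most, and Cdkn1a, the p21 inhibitor (log2 fold change -2.08 ± 0.60, adjusted p = 0.013), Cdkn1c (-1.45 ± 0.57) and Gadd45g (-1.35 ± 0.31) fell most. From Mt to Ht 2 of the 18 rose, Wee1 (1.10 ± 0.28) and Gadd45a (1.06 ± 0.27), where 1.5% of all genes did. Summed over the 18, inhibitors were 460 to 677 CPM in tissue and 1270 to 1919 in sorted cells. From Mt2 5 of 18 were higher in F4/80+ cells and 8 of 18 in CD11b+ cells, where 17.2% and 17.6% of all genes were, with none lower, led in both by Btg2 (3.13 ± 0.58 in F4/80+), Gadd45b (2.49 ± 0.49) and Btg1 (2.39 ± 0.27). Btg2 had 35.0 and 29.8 CPM in Mt2 and 495, 166 and 192 in F4/80+ cells. No gene of any of these lists was called between CD11b+ and F4/80+ cells.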

How the data were processed

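Poly(A) RNA-seq of 14 tissue and 6 sorted-cell libraries was used as deposited, as read counts per gene in a table for tissue and a table for sorted cells. Per the submitters' processing notes, the authors aligned reads with HISAT2 2.0.5 to GRCm38 (mm10) and counted them with featureCounts 1.5.0-p3, and no scaling had been applied to the deposited counts. The sorted table carries no gene names and was joined to the tissue table by gene ID.

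Counts were tested with edgeR 4.0.16 (quasi-likelihood F test, TMM scaling, filterByExpr, Benjamini-Hochberg adjustment over all genes tested) in R 4.3.3. A tissue fit held 13 samples in 7 groups, a sorted fit 6 libraries, and a joint fit of 19 samples gave the comparisons of Mt2 with sorted cells and all CPM printed. Mt is the mean of Mt3, Mt2 and Mt1. Called genes had an adjusted p not above 0.05 and a log2 fold change of 1 or more in size. Values after ± are standard errors of log2 fold changes unless marked SD. CPM per kilobase used the gene lengths in the tissue table. The scripts were tested on simulated data with 200 changed genes among the real ones, of which 70.5% (con to Lt) to 93.5% (CD11b+ to F4/80+) were recovered. Intervals and limits at a count of 0 cover counting error only, and the library totals are given with the results.

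The 44 genes, the lists set beside them and the alternatives were chosen with earlier results of these data known. Every member was accounted for. Values by library were given for 14 of them chosen by name, and in each comparison the 3 with the largest and the 3 with the smallest log2 fold change and those moving against most were named. From other lists, the 3 called genes with the largest change in each direction were named, except 1 replication gene that is not reported here. Cdk4, E2f1 from Mt2 to F4/80+ and the genes in the order of levels were named after their values were seen. Alternatives were DESeq2 1.42.0, other scalings, filters and thresholds, a fit of only the groups compared, a replicate block, and leaving out each library. Promoters were read from RefSeq (GRCm38.p6).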

Additional observations from a re-analysis of the deposited data

Results flagged for a closer look

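The single L-con library took part in no test, and its summed level lay above both con libraries in each class. The 25 mitosis genes summed to 252 CPM, against 41.7 and 54.3 CPM in con. The 15 S phase genes summed to 229 CPM, against 169.3 and 169.8, and the 4 G1/S regulators to 48.9 CPM, against 30.4 and 43.0. The tumor markers of L-con summed to 23.8 CPM against 0 in con. Its macrophage (1660 CPM against 709 and 994), fibroblast (714 against 297 and 413) and monocyte markers (2412 against 1807 and 1832) were above both con libraries as well, and their part in these values was not tested. The monocyte sum did not follow most of its markers from con to Ht.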

How the results depend on the processing

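Of 99 recomputed counts of called members, 79 stayed within 1.5 times the count reported, 8 rose and 12 fell beyond it. Of 4284 recomputed gene values 3999 kept their side of the thresholds, and no called gene turned sign. From Mt to Ht, the 1 gene called became 43 with total-count scaling (15.1% of all genes higher), 3 with no filter on low counts (2.19%) and 15 with no threshold on the fold change (6.1%, against 1.5%), and 0 in a fit of only the groups compared (1.52%) or with the Mt libraries as 1 group (0.175%). From Mt2 to F4/80+ cells, the 6 calls became 2 with at least 10 counts in every library, con included, where 34.7% of all genes were called, and 13 with no fold threshold (54.3%). From Mt2 to CD11b+ cells, the 8 calls became 5 with at least 10 counts (35.9%), 16 with no fold threshold (56%) and 5 with the replicate block (42.1%). The filter at 10 counts left 32 of the 44 members, without Bub1, Cenpe and Ccnb1, so those calls were not tested under it. The fall of the S phase minus mitosis level from con to Ht, -2.06, was -2.53 with a pseudocount of 0.1, -2.69 as a log2 ratio of summed CPM and -1.91 with total counts. Leaving out 1 library at a time gave 30 to 43 calls from con to Lt (4.29% to 13.3% of all genes called), 44 to 44 from con to Ht (44.3% to 49.5%), 8 to 41 from Lt to Ht (16.3% to 34.7%), 0 to 14 from Mt to Ht (0% to 20.8%), 0 to 0 between sorted populations (0% to 0.927%), 4 to 13 from Mt2 to F4/80+ (36.9% to 40.3%) and 5 to 12 from Mt2 to CD11b+ cells (38.1% to 43.2%), where a group left with 1 sample was assumed to vary like the others. The causes of these changes were not tested.

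Same-numbered libraries of the groups compared did not deviate together (correlations of -0.27 to 0.10), so the numbers were not taken to pair them. Pairs between Lt, Mt3, Mt2 and Mt1 were not examined. With the replicate block, 42 members were called from con to Lt (13.6% of all genes called), 44 from con to Ht (50.1%), 42 from Lt to Ht (33.2%), 1 from Mt to Ht (16.5%), 0 between sorted populations (0.547%), 4 from Mt2 to F4/80+ (41.3%) and 5 from Mt2 to CD11b+ cells (42.1%). With the numbers of Lt exchanged, an alternative chosen after seeing the data, 42 were called from con to Lt (11.4%). In groups of 2 samples a negative correlation turns positive when the numbers are exchanged. No exchange was tried from Mt to Ht, where the correlations were most negative (-0.15 to -0.27). At 4 counts in each con library, as for Bub1, the size of the con to Lt change is limited by depth.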
